A study of Mus musculus with 3 samples.

Results

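Clusters 4 and 1 of tumour cDC1s, the pair of clusters that the study groups as early type 1 conventional dendritic cells, were compared with each other across all genes. The members are cells, taken by their cluster number in the table the authors deposited (clustering resolution 0.8). Cluster 4 holds 512 cells and cluster 1 holds 820, of 5806 cDC1s in 12 clusters and of 30209 cell barcodes in the 3 libraries. Cluster 4 carried more RNA of many genes of dendritic cell precursors and less of many that mark the cDC1 lineage. *Cd7* stood at 54.2 ± 13.4 CPM (UMIs of the gene per 1000000 UMIs of the sum, mean ± SD, n = 3 libraries) in cluster 4 and 3.73 ± 2.11 in cluster 1. For *Itgae*, the integrin αE chain, the values were 39.1 ± 15.3 CPM and 164 ± 15 CPM. Markers of other cell types moved too, with 6 of 7 cDC2 markers and 7 of 9 monocyte or macrophage markers tested higher in cluster 4 (against 9.03% of all genes tested), and 9.96% of its cells had high doublet scores against 2.20% in cluster 1. Of the genes tested, 15 of 23 of sterol synthesis and 27 of 31 type I interferon-stimulated genes were higher in cluster 4, where 9.03% of all genes tested were, but 7 of the former without the sGSN-/- library and 3 of 22 of the latter with cells thinned to an equal number of UMIs. Lower there were 6 of 13 genes of MHC class II presentation and 30 of 72 nuclear genes of oxidative phosphorylation, against 7.21% of all genes tested, but 3 of the former without the WT or the sGSN-/- library and 9 of the latter when libraries were scaled without TMM factors. A set of 29 of the 512 cells of cluster 4, chosen by their UMIs of 3 interferon-stimulated genes, held 33.9% of the UMIs of the other type I genes and 11.5% of all UMIs.

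Every cDC1 descends from a committed precursor made in the bone marrow, and the last steps of its maturation take place in the organ or tumour it has reached. These steps need the transcription factors IRF8, BATF3 and ID2, while ZEB2 opposes the cDC1 fate. Precursors carry CD7 and the receptor FLT3, and differentiated cDC1s carry XCR1, CLEC9A and TLR3, take up dead cells and present their antigens to CD8+ T cells.

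The single-cell RNA sequencing libraries hold pre-cDCs, cDC1s and cDC2s that were sorted from MCA205 LA-OVA tumours, a fibrosarcoma line with the model antigen OVA that was implanted into mice, 5 days after implantation. Each of the 3 genotypes gave 1 library, made from pooled mice aged 6 to 20 weeks. For WT, 37 mice were pooled, of which 25 were male and 12 female. The sGSN-/- pool, which lacks the secreted form of gelsolin, had 31 mice (15 male, 16 female), and the sGSN-/-Clec9a-/- pool, which also lacks the receptor CLEC9A (DNGR-1), had 27 (10 male, 17 female). All sorted cells were CD11c+ and MHC class II+ and lacked CD88 and lineage markers. Within these, cDC1s were gated by XCR1, cDC2s by SIRPα (*Sirpa*) and pre-cDCs by CD135 (*Flt3*) and CD43 (*Spn*), so *Xcr1*, *Sirpa*, *Flt3*, *Spn* and MHC class II were part of the sort. As no genotype has a second library, the 3 libraries serve here as replicates of a cluster, and any difference between genotypes is part of the SD.

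The UMI counts of each cluster were summed within each library, which gave 3 sums for cluster 4 (2573510 UMIs for WT, 2015074 for sGSN-/- and 1764889 for sGSN-/-Clec9a-/-) and 3 for cluster 1 (4300142, 3769802 and 3053452 UMIs). Of 8722 genes tested, 788 were higher in cluster 4 (9.03%) and 629 lower (7.21%), 16.2% together, at a Benjamini-Hochberg adjusted p under 0.05 in the quasi-likelihood F-test of edgeR. Because the authors called both clusters from these very counts, an adjusted p describes how alike the libraries are, not whether the clusters exist, and nothing is read from these shares. The CPM of the 3 libraries did not overlap between the clusters for 2834 genes (32.5% of those tested), 1970 of them higher (22.6%) and 864 lower (9.91%). Scaled by library size without TMM factors, which moved the median of all genes from 0.01 to 0.10 on the log2 scale, 1005 genes were higher and 360 lower, so the balance of directions depends on the scaling (73.6% of calls higher in place of 55.6%). DESeq2, given 15395 genes, called 456 higher and 352 lower. Cells thinned to 5100 UMIs each gave 343 and 306 of 6720 tested, so these counts come from other sets of genes. With 1 library left out the numbers were 441 and 267 (without WT), 490 and 297 (without sGSN-/-) and 620 and 528 (without sGSN-/-Clec9a-/-). Below, fold changes are log2 of cluster 4 over cluster 1 with the standard error of the fit. Values of single libraries come in the order WT, sGSN-/- and sGSN-/-Clec9a-/-, and each gene called lay on the same side in all 3 libraries.

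*Clec9a*, the gene deleted in 1 library, had no UMI in the sGSN-/-Clec9a-/- sums of either cluster. In the other two libraries it stood at 91.3 and 99.7 CPM in cluster 4 and at 109 and 122 CPM in cluster 1. Fitted on these 2 libraries alone, *Clec9a* was lower in cluster 4 (log2 fold change -0.37 ± 0.10, adjusted p = 0.028), but not by DESeq2 or without TMM factors. It overlaps *Clec1b* and *Gm43914* on the same strand, so its reads could not all be assigned with certainty. *Gsn*, the gene of gelsolin, stood at 123, 132 and 145 CPM in cluster 4 against 194, 230.3 and 227 CPM in cluster 1 (log2 fold change -0.80 ± 0.10, adjusted p = 3.6e-05). The counts are per gene and do not separate the secreted form from the intracellular one, and *Gsn* overlaps *Gm43128* on the same strand.

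Cluster 4 took a like share of the cDC1s in each library, 8.38% (95% interval 7.28 to 9.58) in WT, 9.87% (8.50 to 11.4) in sGSN-/- and 8.38% (7.13 to 9.77) in sGSN-/-Clec9a-/-. These are exact Clopper-Pearson intervals, and like all intervals here they cover counting error only. Cluster 1 took 13.0%, 15.3% and 14.5%. The cells of cluster 4 were shallower, with a median of 11172 UMIs against 13524.5 in cluster 1, and more of them were among the 6% of barcodes with the highest doublet scores of their library. Those were 51 cells of cluster 4 (9.96%), 22 in WT, 7 in sGSN-/- and 22 in sGSN-/-Clec9a-/-, against 18 cells of cluster 1 (2.20%). Cells with a UMI of a proliferation marker made up 17.4% of cluster 4 and 18.2% of cluster 1, and the median mitochondrial share of UMIs was 1.76% and 1.71%. Pairs of libraries shared 26, 28 and 27 barcode sequences, 0 of them in clusters 4 and 1 of both libraries. Fold changes were fitted again with thinned cells and without the high doublet scores. Beyond these fits, the part of depth and of doublets in the fold changes was not tested.

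Marker lists of 14 cell types were used to check the label. Of all genes tested, 9.03% were higher in cluster 4 and 7.21% lower, the shares to set beside the markers called. The 9 cDC1 markers summed to 1339, 1377 and 1446 CPM in cluster 4, against 2257, 2319 and 2292 CPM in cluster 1, with 3299.8, 3312 and 3333 CPM in the resting cDC1s (clusters 0, 2, 3, 5 and 6, with 3499 cells). None of the 9 was at 0, *Naaa* was the most abundant, and 6 were lower in cluster 4 than in cluster 1. The 7 pre-cDC markers, led by *Kit*, summed to 377, 408 and 296 CPM in cluster 4, against 171, 163 and 144 CPM in cluster 1, with 112, 119.7 and 119.9 CPM in resting cDC1s, and 5 of the 7 were higher in cluster 4. Both clusters therefore carry cDC1 markers at a lower level and pre-cDC markers at a higher level than the resting cells, and cluster 4 lies farther from the resting cells on both lists. On these lists the levels do not go against the label of early cells, and they give no order in time. The cDC2 list, given next, was higher in cluster 4 as well, with a mean of 320 CPM against 59 CPM in cluster 1. *Flt3*, a receptor of precursors, was lowest in cluster 4. Whether cluster 4 includes cells of another lineage or uncommitted cells was not tested.

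The 8 cDC2 markers summed to 337, 275 and 348 CPM in cluster 4, against 61.9, 63.1 and 52.1 CPM in cluster 1, with 29.2, 26.3 and 25.6 CPM in resting cDC1s. *Cd209a* was the most abundant, *Clec4a4* was at 0 in cluster 4, and 6 of the 7 tested were higher in cluster 4. Of all genes tested, 9.03% were higher there. The monocyte or macrophage list, led by *Lyz2*, summed to 869.6, 859 and 1105 CPM in cluster 4 against 767, 674 and 749 CPM in cluster 1, with 7 of its 9 tested genes higher in cluster 4. Resting cells had 1078, 949 and 1018 CPM, which overlaps the sums of cluster 4. Among plasmacytoid markers, led by *Bst2*, the sums were 441, 431 and 418 CPM and 327, 328 and 340.3 CPM, with 296, 318 and 295 CPM in resting cells. *Bst2* was higher in cluster 4, but not past the threshold with thinned cells or without the WT or the sGSN-/- library. *Siglech*, a lectin of plasmacytoid cells and of some precursors, was lower in cluster 4, at 5.05, 4.47 and 5.10 CPM against 14.4, 17.5 and 21.3 CPM (log2 fold change -1.92 ± 0.26, adjusted p = 8e-05).

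Lists of the remaining cell types gave low or similar sums. NK cell markers, led by *Klrd1*, summed to 185, 204 and 183 CPM in cluster 4 against 167, 249.9 and 206 CPM in cluster 1, and B cell markers, led by *Ighm*, to 85.5, 102 and 81 CPM and 68.8, 76.7 and 83.5 CPM, with *Cd79a* and *Pax5* among those at 0 in cluster 4. T cell markers stood at 3.11, 12.4 and 5.67 CPM and 4.19, 8.49 and 4.26 CPM. Activated cDC markers were low in both clusters, at 22.1, 14.9 and 25.5 CPM and 12.8, 29.2 and 18 CPM. The tumour or stromal list, led by *Fn1*, whose own difference did not pass with thinned cells or without cycling cells, reached 25.3, 17.4 and 26.1 CPM in cluster 4 against 10.2, 4.51 and 8.51 CPM in cluster 1, and the endothelial list, led by *Pecam1*, 21, 16.9 and 7.93 CPM and 7.44, 11.4 and 5.24 CPM. The erythroid or platelet list stood at 9.71, 0 and 2.27 CPM in cluster 4 against 0.930, 0.265 and 0.655 CPM in cluster 1. Neutrophil and mast cell or basophil markers were at or near 0, with at most 0.993 CPM in any sum.

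**Figure D1:**
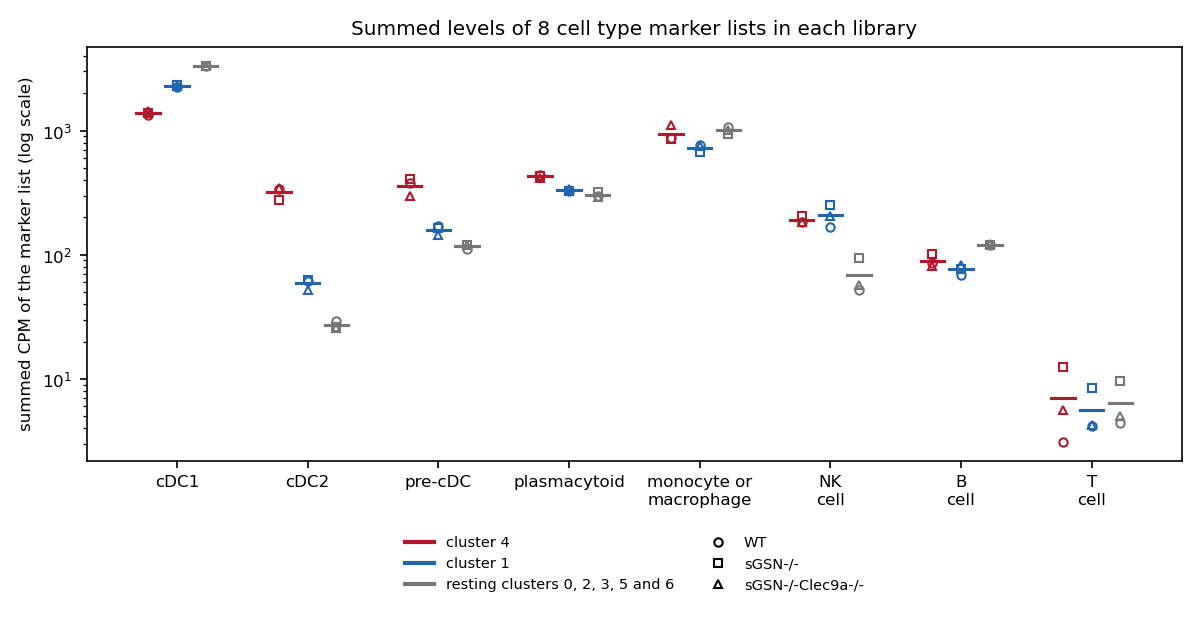
Summed CPM of 8 cell type marker lists (vertical axis, log scale) in cluster 4, cluster 1 and the resting clusters 0, 2, 3, 5 and 6, with 1 point per library and a bar at the mean of 3 libraries. cDC1 markers lie at 1339, 1377 and 1446 CPM in cluster 4 and cDC2 markers at 337, 275 and 348 CPM, against 2257, 2319 and 2292 CPM and 61.9, 63.1 and 52.1 CPM in cluster 1.

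Of the 36 early cDC1 and precursor genes tested, 22 were higher, 6 were lower and 8 did not pass (61.1% higher and 16.7% lower, against 9.03% and 7.21% of all genes tested, median log2 fold change 0.64, against 0.01 over all genes). The study itself attaches *S100a4*, *S100a6* and *Ifitm1* to these clusters and *Cd7* to pre-cDCs from the same libraries, so for those genes the list is no independent evidence. *Cd7*, an immunoglobulin-family protein of early lymphoid and dendritic cells, stood at 69.6, 48.1 and 44.8 CPM in cluster 4 against 5.12, 4.77 and 1.31 CPM in cluster 1 (log2 fold change 3.71 ± 0.26, adjusted p = 8.7e-08). The lowest cluster 4 library lies above the highest cluster 1 library. *Spn*, the gene of CD43, stood at 23.7, 25.3 and 11.9 CPM against 5.58, 2.65 and 2.29 CPM (log2 fold change 2.40 ± 0.32, adjusted p = 6.1e-05; 1.77 with thinned cells), and the transcription factor gene *Sox4* at 5.83, 6.95 and 3.97 CPM against 0.233, 0.531 and 0.655 CPM (log2 fold change 3.45 ± 0.48, adjusted p = 9.7e-05).

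*S100a4*, a calcium-binding protein gene, was abundant, at 834, 587 and 770.0 CPM in cluster 4 against 222, 173 and 185 CPM in cluster 1 (log2 fold change 1.83 ± 0.12, adjusted p = 6.8e-08). It overlaps the model *Gm42674* on the same strand, and its reads could not all be assigned with certainty. *S100a6* stood at 1521, 1358 and 1215 CPM against 882, 730.3 and 689 CPM (log2 fold change 0.74 ± 0.09, adjusted p = 2e-05). Both S100 genes were far above the resting cells, whose mean was 47.7 CPM for *S100a4* and 344 CPM for *S100a6*. *Cx3cr1* and *Ly6c2*, which mark circulating monocytes and some precursors, rose by 2.95 and 1.91 on the log2 scale, *Ly6c2* by 1.11 with thinned cells. *Ifitm1* did not pass, with 873, 716 and 767 CPM against 821, 811 and 818 CPM, and neither did *Kit*, the stem cell factor receptor, with 120.5, 141 and 117 CPM against 123, 127 and 116 CPM.

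The members of this group that were lower in cluster 4 were *Plet1*, *Siglech*, *Flt3*, *S100a11*, *Il1b* and *Ifitm2*. *Plet1*, which encodes a surface protein of some epithelia and dendritic cells, stood at 42.4, 50.6 and 77.6 CPM in cluster 4 against 214, 288 and 134 CPM in cluster 1 (log2 fold change -2.02 ± 0.23, adjusted p = 1.2e-05). Resting cells, at 44.2 CPM, lay near cluster 4 for *Plet1*. *Flt3*, the receptor for the growth factor of dendritic cell precursors, stood at 113, 97.8 and 109.9 CPM in cluster 4, against 158, 157 and 144 CPM in cluster 1, with 182, 166 and 182 CPM in resting cells (log2 fold change -0.61 ± 0.08, adjusted p = 0.00011). The 3 groups of libraries do not overlap for *Flt3* and are lowest in cluster 4.

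The leading genes higher in cluster 4 were taken among those whose libraries do not overlap and whose mean in cluster 4 was at least 30 CPM. The largest fold change was that of *Serpinb2* (ENSMUSG00000062345, chr1:107511423-107535478, plus strand), which encodes plasminogen activator inhibitor 2. It stood at 43.1, 34.2 and 27.2 CPM in cluster 4 against 0.698, 2.39 and 0.327 CPM in cluster 1 (log2 fold change 4.79 ± 0.34, adjusted p = 9.1e-08). Without the sGSN-/- library the difference was 5.85. *Serpinb2* overlaps *Serpinb10* on the same strand, and its reads could not all be assigned with certainty. *Upb1*, an enzyme of pyrimidine breakdown, stood at 28.4, 46.2 and 26.1 CPM against 1.16, 1.59 and 0.982 CPM (log2 fold change 4.60 ± 0.32, adjusted p = 8.7e-08). *Cd209a*, a C-type lectin of cDC2s and monocyte-derived cells, stood at 209.8, 162 and 177 CPM against 22.3, 15.7 and 21 CPM (log2 fold change 3.14 ± 0.13, adjusted p = 9.7e-10). For each of these the clusters are well apart in every library.

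Next came *Cybb*, the membrane subunit of the phagocyte NADPH oxidase, at 44.7, 26.3 and 48.7 CPM in cluster 4 against 4.88, 4.51 and 2.62 CPM in cluster 1 (log2 fold change 3.18 ± 0.27, adjusted p = 4.9e-07). *Rasgrp2*, an activator of the GTPase Rap1, stood at 38.9, 43.7 and 31.7 CPM against 8.37, 3.45 and 3.60 CPM (log2 fold change 2.74 ± 0.24, adjusted p = 9.2e-07). *Plec*, which encodes the cytoskeletal linker plectin, stood at 77.7, 86.8 and 71.4 CPM against 11.9, 13 and 10.5 CPM (log2 fold change 2.64 ± 0.13, adjusted p = 2.7e-09), and it overlaps *Parp10* on the same strand. The membrane protein gene *Emp1* (2.38), the actin-capping protein gene *Capg* (2.33), *Rgcc* (2.32) and the adhesion molecule gene *L1cam* (2.27) belong to the same group, as do *Cd7*, *Zeb2*, *Rsad2* and *Ifit2*. With thinned cells the differences were 2.55 for *Cybb* and 1.58 for *Capg*. Between 31.4 and 183 CPM, these genes had a moderate mean level in cluster 4.

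**Figure D2:**
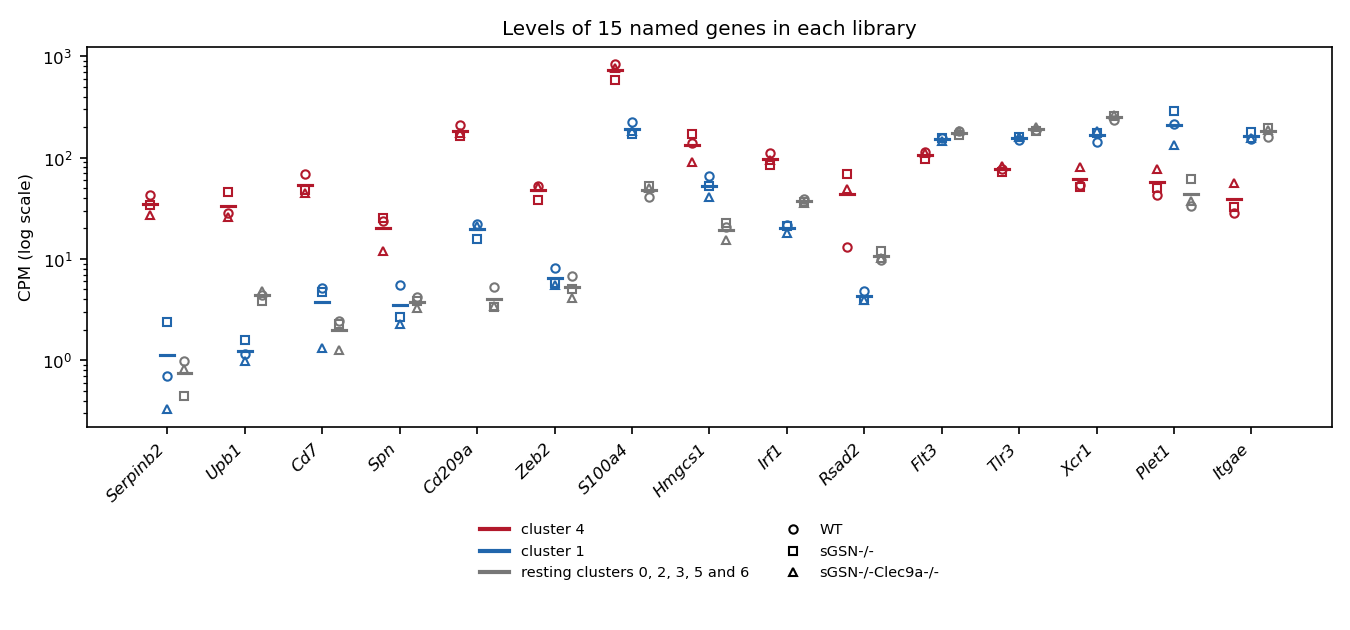
CPM of 15 named genes (vertical axis, log scale) in cluster 4, cluster 1 and the resting clusters 0, 2, 3, 5 and 6, with 1 point per library and a bar at the mean of 3 libraries. *Serpinb2* lies at 43.1, 34.2 and 27.2 CPM in cluster 4 and *Itgae* at 28.4, 32.3 and 56.7 CPM, against 0.698, 2.39 and 0.327 CPM and 154, 181 and 156 CPM in cluster 1.

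Of the 26 cDC1 identity genes tested, 14 were lower and 2 were higher, *Cxcl9* and *Tmem176a* (53.8% and 7.69%, against 7.21% and 9.03% of all genes tested, median log2 fold change -0.43, against 0.01 over all genes). Genes lower in cluster 4 numbered 9 by DESeq2 and 8 without the WT library and without the sGSN-/- library. *Itgae* (ENSMUSG00000005947, chr11:73090583-73147446, plus strand), whose product CD103 pairs with integrin β7 to bind E-cadherin, stood at 28.4, 32.3 and 56.7 CPM in cluster 4 against 154, 181 and 156 CPM in cluster 1 (log2 fold change -2.19 ± 0.17, adjusted p = 2.2e-07). *Xcr1*, the receptor for the chemokine XCL1, stood at 54, 51.1 and 81 CPM against 144, 176 and 185 CPM (log2 fold change -1.54 ± 0.15, adjusted p = 3e-06). In both genes the sGSN-/-Clec9a-/- library is the highest of cluster 4 and still lies below every library of cluster 1. Without the high doublet scores the differences were larger, -2.64 for *Itgae* and -1.84 for *Xcr1*, and with thinned cells that of *Itgae* was -2.97.

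*Tlr3*, the receptor for double-stranded RNA, stood at 77.7, 72 and 82.7 CPM in cluster 4 against 150.2, 159 and 161 CPM in cluster 1 (log2 fold change -1.11 ± 0.09, adjusted p = 5.2e-07). *Naaa*, a lysosomal acid amidase, stood at 558, 548 and 638 CPM against 983, 976 and 1086 CPM (log2 fold change -0.89 ± 0.09, adjusted p = 3.2e-06), and *Wdfy4*, which cross-presentation of cell-associated antigen needs, at 239, 244 and 254 CPM against 363, 359 and 350.4 CPM (log2 fold change -0.63 ± 0.07, adjusted p = 1.2e-05). *Gcsam* (-1.33) and *Snx22* (-1.42) were lower as well. *Cadm1* (-0.52) and *Batf3* (0.02) did not pass, nor did *Clec9a* when all 3 libraries entered the fit (-0.34). *Cxcl9*, a chemokine gene induced by interferon gamma that attracts CXCR3-bearing T cells, went the other way, at 134, 72.5 and 127 CPM against 17, 40.3 and 13.8 CPM (log2 fold change 2.14 ± 0.28, adjusted p = 4.9e-05), and its difference was 1.63 without the high doublet scores and 2.98 without the sGSN-/- library.

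Outside the identity list, the leading genes lower in cluster 4 were *Plet1*, *Rasgrp3*, *Agpat3*, *Hepacam2*, *Ffar4*, *Cxcl16*, *Dapk1*, *Gm34084*, *Spint1*, *Qpct* and *Ears2*, from -1.74 for *Rasgrp3* to -1.23 for *Ears2* beside *Plet1*. *Agpat3*, an acyltransferase of phospholipid synthesis, stood at 18.3, 22.8 and 25.5 CPM in cluster 4 against 66.3, 70.6 and 57.6 CPM in cluster 1 (log2 fold change -1.66 ± 0.14, adjusted p = 3.6e-07). *Ffar4*, a receptor for long-chain fatty acids, stood at 15.5, 26.8 and 24.4 CPM against 52.8, 58.9 and 59.9 CPM (log2 fold change -1.48 ± 0.16, adjusted p = 8.4e-06). *Cxcl16*, the ligand of CXCR6, stood at 72.7, 48.1 and 125 CPM against 168, 198 and 194 CPM (log2 fold change -1.30 ± 0.20, adjusted p = 0.00032). These libraries do not overlap, and for *Cxcl16* the sGSN-/-Clec9a-/- library of cluster 4 stands well above the other two. *Gm34084* (-1.28) did not pass by DESeq2 or without the WT or the sGSN-/- library and fell by 1.97 without the sGSN-/-Clec9a-/- library.

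Among dendritic cell transcription factors, 8 of the 28 tested were higher in cluster 4 and 2 were lower, *Mycl* and *Id2* (28.6% and 7.14%, against 9.03% and 7.21% of all genes tested, median log2 fold change 0.18, against 0.01 over all genes). Other settings gave a number higher of 4 with thinned cells (27 tested), and a number lower of 4 with the library as a block and 1 by DESeq2, without the WT library, without the sGSN-/- library and with thinned cells (27 tested). *Zeb2*, the repressor that opposes the cDC1 fate, stood at 52.5, 38.2 and 51.6 CPM in cluster 4 against 8.14, 5.84 and 5.57 CPM in cluster 1 (log2 fold change 2.75 ± 0.19, adjusted p = 8.7e-08). *Irf4*, a factor of cDC2s, was low but separate, at 7.38, 7.94 and 12.5 CPM against 3.26, 1.33 and 1.96 CPM (log2 fold change 1.91 ± 0.36, adjusted p = 0.0016), with a difference of 2.51 without the WT library. *Klf2*, a factor of quiescence and trafficking, stood at 218, 247 and 233 CPM against 107, 111 and 108 CPM (log2 fold change 1.01 ± 0.08, adjusted p = 2.8e-07). Resting cells had more *Klf2* than either cluster, with a mean of 471 CPM. *Tcf4*, which encodes E2-2 of plasmacytoid cells, rose by 0.71, *Bcl11a* by 0.97 and *Cebpa* by 1.01, the last not past the threshold with thinned cells. *Id2*, an inhibitor that cDC1s need, stood at 341, 443 and 389 CPM against 490.4, 593 and 503 CPM (log2 fold change -0.53 ± 0.09, adjusted p = 0.00094), while *Irf8* (-0.15) and *Batf3* (0.02) did not pass.

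Of 13 genes of MHC class II presentation tested, 6 were lower in cluster 4 and the other 7 did not pass (median log2 fold change -0.21, against 0.01 over all genes). Under other settings the count of lower genes was 3 without the WT library and without the sGSN-/- library. *H2-Eb1*, a class II β chain, stood at 5466, 5786 and 6421 CPM in cluster 4 against 8401, 8638 and 8980 CPM in cluster 1 (log2 fold change -0.65 ± 0.09, adjusted p = 7.5e-05). *H2-Ab1* stood at 7768, 8390.3 and 8784 CPM against 10496, 10762 and 11021 CPM (log2 fold change -0.46 ± 0.08, adjusted p = 0.00092). Cells were sorted for MHC class II. Both are among the most abundant transcripts of these cells, and in each library cluster 4 is the lower. *Ciita*, the class II transactivator, did not pass (-0.21).

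In the class I pathway, 6 of 22 genes were lower (27.3%, against 7.21% of all genes tested) and the other 16 did not pass, with a median log2 fold change of -0.05, but 0.04 without TMM factors. The number higher was 2 without TMM factors and 1 with the library as a block and with thinned cells, and the number lower was 3 without TMM factors, without the WT library and without the sGSN-/- library. *Psme1*, a subunit of the proteasome activator PA28, stood at 1023, 1013 and 999 CPM against 1332, 1268 and 1270.4 CPM (log2 fold change -0.44 ± 0.07, adjusted p = 0.0002), and *Psmb8* and *Psmb9* of the immunoproteasome fell by 0.40 and 0.42 on the log2 scale. The class I heavy chain genes *H2-K1* (-0.08) and *H2-D1* (0.11) did not pass. Lysosome and endocytosis genes moved in both directions, 7 higher and 7 lower of 30 (23.3% each way, against 9.03% and 7.21% of all genes tested, median log2 fold change -0.03, but 0.06 without TMM factors, 0.01 without the WT library and 0.07 without the sGSN-/- library). Genes higher in cluster 4 numbered 4 by DESeq2, without the WT library and without the high doublet scores and 3 with thinned cells (29 tested), and genes lower there numbered 4 without the WT library. *Ctsl*, a cysteine protease, stood at 27.2, 23.3 and 38.5 CPM against 14, 13.3 and 13.4 CPM (log2 fold change 1.02 ± 0.19, adjusted p = 0.0014), while *Ctsc* (-0.59) and *Cst3* (-0.48), a protease inhibitor abundant in dendritic cells, were lower. *Ctsd* rose by 1.47, but not past the threshold with thinned cells.

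Receptors of innate recognition and uptake moved in both directions, and several that are known from cDC2s and monocytes were higher in cluster 4. Of 25 tested on this list, 11 were higher and 4 were lower (44% and 16%, against 9.03% and 7.21% of all genes tested). By sign alone, 13 lay above 0 and 12 below. *Tlr3*, given above, was the lowest (-1.11). The median log2 fold change was 0.16, but -0.44 with thinned cells, -0.17 without the high doublet scores and -0.16 without cycling cells. It was 0.83 by DESeq2 and 0.80 with no filter on low counts (32 tested in each). Other settings gave a number higher of 7 without the WT library, without the sGSN-/- library, without the sGSN-/-Clec9a-/- library and without cycling cells and 3 with thinned cells (15 tested), and a number lower of 8 with the library as a block, with no filter on low counts, without the sGSN-/-Clec9a-/- library and without the high doublet scores. *Tlr2*, a receptor for bacterial lipoproteins, stood at 28, 23.3 and 28.9 CPM in cluster 4 against 5.12, 4.24 and 4.26 CPM in cluster 1 (log2 fold change 2.45 ± 0.21, adjusted p = 5.5e-07), and the lectin gene *Cd209d* at 9.33, 15.9 and 6.23 CPM against 1.40, 1.33 and 1.96 CPM (log2 fold change 2.66 ± 0.39, adjusted p = 0.00016). The libraries do not overlap for either gene. Outside this list, *Sirpa*, the receptor for CD47 that marks cDC2s, stood at 14.8, 13.4 and 18.1 CPM against 4.65, 1.33 and 0.655 CPM (log2 fold change 2.57 ± 0.39, adjusted p = 0.00022), and *Clec10a*, a cDC2 lectin, at 31.5, 39.2 and 38.5 CPM against 9.07, 16.4 and 6.55 CPM (log2 fold change 1.65 ± 0.23, adjusted p = 9.7e-05). *Sirpa* was part of the sort, and without the WT library its difference was 3.78. *Itgam*, the gene of CD11b and also outside the list, stood at 46.6, 28.8 and 38 CPM against 12.8, 11.7 and 11.5 CPM (log2 fold change 1.58 ± 0.18, adjusted p = 1.6e-05).

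Of the 9 monocyte or macrophage markers tested, 7 were higher in cluster 4 (against 9.03% of all genes tested), while *Lyz2*, the most abundant, and *Cd14* did not pass. Of the 7, *C1qa* did not pass without the WT library, *C1qc* did not pass without the high doublet scores, without cycling cells or without the sGSN-/- or the sGSN-/-Clec9a-/- library, and *Fcgr1* did not pass without cycling cells or either of those libraries and stood at -0.14 with thinned cells. *Csf1r*, the receptor for M-CSF, stood at 34.2, 16.4 and 36.8 CPM in cluster 4 against 7.91, 6.10 and 5.57 CPM in cluster 1 (log2 fold change 2.05 ± 0.28, adjusted p = 6.9e-05), and its difference was 1.27 with thinned cells. *Apoe*, an apolipoprotein, stood at 53.6, 21.3 and 32.9 CPM against 14.7, 8.49 and 10.8 CPM (log2 fold change 1.60 ± 0.28, adjusted p = 0.00068), and the complement gene *C1qb* at 22.1, 18.4 and 41.9 CPM against 10.7, 5.84 and 6.88 CPM (log2 fold change 1.66 ± 0.30, adjusted p = 0.001). Part of this RNA lay in cells with high doublet scores. Those 51 cells of cluster 4, with a median of 16138 UMIs against 10981 in the other 461, held 129 CPM of *Apoe* against 22.1 CPM in the others, and without them the difference for *Apoe* was 0.90. Summed cDC2 markers stood at 511 CPM in those cells and at 288 CPM in the other cells of cluster 4, so the other cells still lie above the 59.6 CPM of cluster 1. *Cd209a* (3.04), *Sirpa* (2.35) and *Tlr2* (2.22) are the differences of these genes without the high scores.

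Genes of adhesion and migration divided between the clusters. Of 29 chemokine receptor, adhesion and migration genes tested, 14 were higher in cluster 4 and 6 were lower (48.3% and 20.7%, against 9.03% and 7.21% of all genes tested, median log2 fold change 0.25, against 0.01 over all genes). Under other settings the count of higher genes was 9 without cycling cells and 8 by DESeq2, without the WT library, without the sGSN-/- library and with thinned cells (24 tested), and that of lower genes was 3 without the WT library. Beside *Cx3cr1*, *Cd44*, a hyaluronan receptor, stood at 228, 222 and 209.6 CPM in cluster 4 against 87.2, 79.3 and 81.5 CPM in cluster 1 (log2 fold change 1.32 ± 0.08, adjusted p = 3.7e-08), and *Itga4*, the α chain of VLA-4, at 196, 191 and 173 CPM against 84.4, 104 and 80.9 CPM (log2 fold change 0.97 ± 0.09, adjusted p = 2e-06). *Cdh1*, the gene of E-cadherin, was higher at a low level, with 8.16, 13.4 and 9.07 CPM against 2.56, 1.59 and 2.95 CPM (log2 fold change 2.01 ± 0.33, adjusted p = 0.00047). Lower in cluster 4 beside *Itgae* and *Xcr1* were *Cxcr3* (-0.98), the receptor for CXCL9, and the tetraspanin gene *Cd81* (-0.98). E-cadherin is a ligand of CD103, so for this pair the gene of the ligand was higher and the gene of the receptor lower in cluster 4.

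Of 35 actin and cytoskeleton genes, 9 were higher and 6 lower (25.7% and 17.1%, against 9.03% and 7.21% of all genes tested, median log2 fold change 0.04, but -0.01 without the sGSN-/- library). The number lower was 3 without the WT library and without the sGSN-/- library. *Vim*, the intermediate filament protein vimentin, stood at 3414, 3855 and 2864 CPM in cluster 4 against 1592, 1571 and 1288 CPM in cluster 1 (log2 fold change 1.10 ± 0.09, adjusted p = 4.9e-07). *Ezr*, which links the membrane to actin, stood at 217, 213 and 169 CPM against 98.4, 105 and 79.6 CPM (log2 fold change 0.99 ± 0.10, adjusted p = 3.4e-06), and *Vcl*, a focal adhesion protein, at 38.9, 38.7 and 31.7 CPM against 15.6, 13.3 and 15.4 CPM (log2 fold change 1.23 ± 0.15, adjusted p = 2.8e-05). Each is higher in every cluster 4 library. *Tmsb4x*, which binds actin monomers, went the other way (-0.69), as did *Gsn*.

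Genes of sterol synthesis were higher in cluster 4 in most cases. Of 23 tested, 15 were higher and the other 8 did not pass (median log2 fold change 0.72, against 0.01 over all genes). Genes higher in cluster 4 numbered 7 without the sGSN-/- library. *Hmgcs1*, which makes HMG-CoA, stood at 141, 172 and 91.2 CPM in cluster 4 against 65.8, 52.3 and 40.9 CPM in cluster 1 (log2 fold change 1.25 ± 0.17, adjusted p = 8.1e-05), and *Msmo1*, a later enzyme of the route to cholesterol, at 122, 136 and 76.5 CPM against 53.7, 52.3 and 39.95 CPM (log2 fold change 1.11 ± 0.15, adjusted p = 7.9e-05). The clusters do not overlap for either gene, and the sGSN-/- library is the highest of cluster 4 for both. *Insig1*, a sterol-sensing regulator of the route, rose by 0.81, while the transcription factor gene *Srebf2* did not pass (132, 141 and 135 CPM against 136, 121 and 127 CPM). Resting cells had less, with means of 19.4 CPM for *Hmgcs1* and 17.9 CPM for *Msmo1*.

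Of 72 nuclear genes of oxidative phosphorylation, 30 were lower in cluster 4 and the other 42 did not pass (median log2 fold change -0.22). Other settings gave a number lower of 18 without the sGSN-/-Clec9a-/- library, 15 without the sGSN-/- library, 10 without the WT library and with thinned cells and 9 without TMM factors. Without TMM factors the median was -0.13. *Uqcrq*, a subunit of complex III, stood at 361, 337 and 355 CPM in cluster 4 against 456, 442 and 442 CPM in cluster 1 (log2 fold change -0.44 ± 0.07, adjusted p = 0.00036), and *Ndufa4* at 379, 414 and 354 CPM against 491, 462 and 459 CPM (log2 fold change -0.39 ± 0.07, adjusted p = 0.001). In glycolysis, 5 of 18 genes were lower and 1, *Pfkfb3*, was higher (27.8% and 5.56%, against 7.21% and 9.03% of all genes tested, median log2 fold change -0.13). Under other settings the count of higher genes was 2 without TMM factors and with the library as a block and none by DESeq2, without the WT library, without the sGSN-/- library, without the sGSN-/-Clec9a-/- library and with thinned cells, and that of lower genes was 3 without the WT library and without the sGSN-/- library and 2 without TMM factors. *Ldha*, which makes lactate, stood at 609.7, 641 and 542 CPM against 728, 752 and 659 CPM (log2 fold change -0.34 ± 0.07, adjusted p = 0.0029).

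Of 77 ribosomal protein genes only *Rps27l* passed, a gene regulated by p53, at 468, 418 and 449 CPM in cluster 4 against 646, 624 and 654 CPM in cluster 1 (log2 fold change -0.62 ± 0.07, adjusted p = 2.6e-05). The median over the list was -0.06, but 0.04 without TMM factors, and the values per library overlap, with summed levels of 252203, 247524 and 256137 CPM in cluster 4 against 242689, 246543 and 258283 CPM in cluster 1. The number lower was 18 with the library as a block, 4 with no filter on low counts and 2 by DESeq2 and without the sGSN-/-Clec9a-/- library. None of the 13 mitochondrially encoded genes passed with edgeR, 1 was higher at an unadjusted p under 0.05, and DESeq2 called none (median log2 fold change -0.05, but 0.05 without TMM factors). Genes higher in cluster 4 numbered 1 without TMM factors, with the library as a block, without the high doublet scores and without cycling cells, and genes lower there numbered 1 with the library as a block. The most abundant of them, *mt-Co1*, stood at 3646, 3689 and 4004 CPM against 3339.9, 3303 and 3835 CPM.

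Of 32 S phase genes of the cell cycle, 5 were higher in cluster 4 (15.6%, against 9.03% of all genes tested), *Nasp*, *Slbp*, *Hells*, *Rpa2* and *Uhrf1*, and the other 27 did not pass (median log2 fold change 0.24, against 0.01 over all genes). Other settings gave a number higher of 3 without the high doublet scores, 2 without the WT library and without the sGSN-/-Clec9a-/- library, 1 by DESeq2, without the sGSN-/- library and without cycling cells and none with thinned cells (22 tested). *Slbp*, which binds histone mRNA, stood at 61.4, 57.1 and 52.1 CPM in cluster 4 against 40.2, 34 and 33.4 CPM in cluster 1 (log2 fold change 0.58 ± 0.11, adjusted p = 0.0019), but did not pass with thinned cells. *Hells* and *Rpa2* did not pass there either, nor without cycling cells, without the sGSN-/- library or by DESeq2. *Uhrf1* did not pass by DESeq2, and neither *Rpa2* nor *Uhrf1* passed with any 1 library left out. Of 25 G2 and M phase genes, 6 were higher (24%) and 2 lower (8%, against 7.21% of all genes tested, median log2 fold change 0.07, but -0.05 without the sGSN-/-Clec9a-/- library and -0.07 without cycling cells). Under other settings the count of higher genes was 3 without the WT library, with thinned cells (19 tested) and without cycling cells, and that of lower genes was 1 without the WT library. *Cks2*, a small partner of cyclin-dependent kinases, stood at 69.6, 71 and 61.8 CPM against 20.2, 22.5 and 21 CPM (log2 fold change 1.58 ± 0.11, adjusted p = 1.1e-07). *Mki67* (0.25) and *Top2a* (0.71) did not pass. Proliferating cells had been left out of the deposited table by the authors, which limits what these lists can show.

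NF-kB and activation genes were higher in cluster 4 in 14 of 29 cases and lower in 2, *Cxcl16* and *Bcl2a1d* (48.3% and 6.90%, against 9.03% and 7.21% of all genes tested, median log2 fold change 0.41, against 0.01 over all genes). The number higher was 8 with thinned cells (27 tested), and the number lower was 5 with the library as a block and 4 with no filter on low counts and without the sGSN-/-Clec9a-/- library. *Tnf*, the cytokine, stood at 17.9, 14.4 and 25.5 CPM in cluster 4 against 4.19, 6.10 and 3.60 CPM in cluster 1 (log2 fold change 1.93 ± 0.27, adjusted p = 0.00012). *Nfkbiz*, an inducible regulator of NF-kB, stood at 66.4, 47.1 and 74.2 CPM against 20.5, 16.7 and 17 CPM (log2 fold change 1.69 ± 0.16, adjusted p = 2.6e-06), and *Cd40*, a co-stimulatory receptor, at 28, 22.8 and 22.7 CPM against 7.21, 8.22 and 7.86 CPM (log2 fold change 1.58 ± 0.19, adjusted p = 2.3e-05). The clusters do not overlap for these genes. *Nfkbia* (1.02) and *Tnfaip3* (1.10), which restrain the pathway, were higher too, while *Cd86* (-0.20), *Cd83* (-0.14) and *Il12b* (-1.33, with 2.33, 1.99 and 10.2 CPM against 2.33, 18 and 12.4 CPM) did not pass. With 1 library left out the difference of *Il12b* ranged from -1.48 to -0.36.

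Among 26 immediate early genes, 11 were higher and 4 lower (42.3% and 15.4%, against 9.03% and 7.21% of all genes tested, median log2 fold change 0.22). Genes lower in cluster 4 numbered 7 with the library as a block and 2 without the sGSN-/- library. *Jun* stood at 777, 742 and 712 CPM in cluster 4 against 384, 408 and 316 CPM in cluster 1 (log2 fold change 0.92 ± 0.08, adjusted p = 5e-07), *Dusp2*, a phosphatase of MAP kinases, at 145, 115 and 125 CPM against 47, 50.9 and 44.9 CPM (log2 fold change 1.35 ± 0.10, adjusted p = 2.2e-07), and *Jund*, an AP-1 subunit like *Jun*, at 1191, 1147 and 1062 CPM against 662, 679 and 633 CPM (log2 fold change 0.70 ± 0.07, adjusted p = 2e-06). Lower in cluster 4 were *Nr4a3*, *Egr3*, *Egr2* and *Nr4a2*, from -0.68 to -0.41, so the group did not move as 1 block, and *Fos* (0.22) and *Egr1* (0.07) did not pass. *Jun* and *Dusp1* also stood high in resting cells, with means of 687 and 818 CPM, above the 369 ± 47.8 and 228 ± 6.24 CPM of cluster 1.

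Of 17 heat shock chaperone genes, 3 were higher in cluster 4 (17.6%, against 9.03% of all genes tested), *Hspa1b*, *Dnaja1* and *Hsp90aa1*, and 1, *Hspe1*, was lower (5.88%, against 7.21%, median log2 fold change 0.10, but -0.04 without the WT library and without the high doublet scores and 0.34 without the sGSN-/- library). Other settings gave a number higher of 6 with no filter on low counts, 5 with the library as a block and 1 by DESeq2, without the WT library and without the sGSN-/-Clec9a-/- library, and a number lower of 2 with the library as a block and none without TMM factors and without the sGSN-/- library. *Hsp90aa1* stood at 807, 656 and 699 CPM in cluster 4 against 513, 555 and 423 CPM in cluster 1 (log2 fold change 0.45 ± 0.09, adjusted p = 0.0022), but did not pass without the WT library. *Hspa1b* did not pass by DESeq2, with thinned cells, without the high doublet scores, without cycling cells or without the WT or the sGSN-/-Clec9a-/- library, *Dnaja1* did not by DESeq2 or without the sGSN-/-Clec9a-/- library, and *Hspe1* did not without TMM factors or the sGSN-/- library. *Hspa1b* and *Hspa1a* are near-identical copies, and how their reads divide is uncertain. In the unfolded protein response, 2 of 25 genes were higher, *Ddit3* and *Atf6*, and 2 lower, *Herpud1* and *Sdf2l1* (8% each way, near the shares of all genes tested, median log2 fold change -0.02, but 0.07 without TMM factors, 0.01 without the sGSN-/-Clec9a-/- library and 0.03 with thinned cells). Under other settings the count of higher genes was 5 without TMM factors and with the library as a block and 1 by DESeq2, without the WT library and without the sGSN-/- library, and that of lower genes was 4 with the library as a block and 1 without the WT library and without the sGSN-/- library. *Ddit3*, which encodes CHOP, stood at 58.7, 76.9 and 53.8 CPM against 32.6, 29.4 and 40.3 CPM (log2 fold change 0.81 ± 0.15, adjusted p = 0.0011), but did not pass without the sGSN-/- library. *Herpud1* did not pass without that library either, *Sdf2l1* did not without the WT library, and *Atf6* did not without the WT library or by DESeq2.

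**Figure D3:**
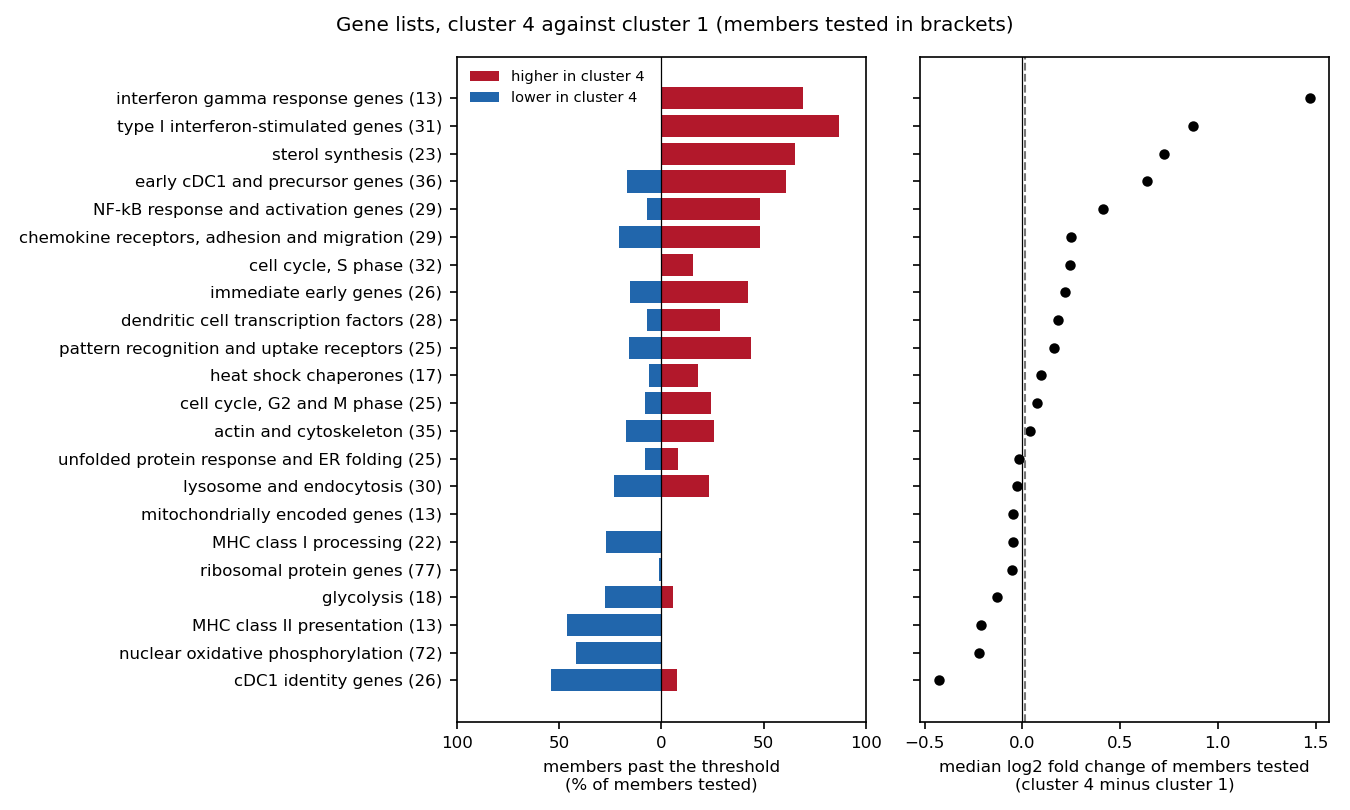
Gene lists ordered by the median log2 fold change of their members tested (right, cluster 4 minus cluster 1, dashed line at the 0.01 of all genes), with the share of members past the threshold in each direction (left). Medians run from 1.47 for interferon gamma response genes to -0.43 for cDC1 identity genes, and those of ribosomal, mitochondrially encoded, class I, lysosome and unfolded protein response genes turn positive without TMM factors but stay below the median of all genes, which is then 0.10.

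Of 31 type I interferon-stimulated genes tested, of 37 listed, 27 were higher and the other 4 did not pass (median log2 fold change 0.87, against 0.01 over all genes). The number higher was 17 without the sGSN-/- library and 3 with thinned cells (22 tested), and the number lower was 1 with the library as a block, with no filter on low counts and without the sGSN-/-Clec9a-/- library. The list summed to 2259.6, 2558 and 2569 CPM in cluster 4, against 1737, 1685 and 1576 CPM in cluster 1, with 2363, 2392 and 2308 CPM in resting cells, so its level in resting cells lay near that of cluster 4 and above that of cluster 1. With thinned cells the median was 0.35. *Rsad2*, which encodes the antiviral enzyme viperin, stood at 13.2, 68.5 and 49.3 CPM in cluster 4 against 4.88, 3.98 and 3.93 CPM in cluster 1 (log2 fold change 3.19 ± 0.46, adjusted p = 0.00015). *Ifit2*, an antiviral protein that binds RNA, stood at 13.6, 35.7 and 47.6 CPM against 4.65, 4.24 and 2.29 CPM (log2 fold change 2.91 ± 0.40, adjusted p = 8.9e-05). In both genes the WT library is the lowest of cluster 4, and all 3 libraries lie above those of cluster 1. Without WT the differences were 3.79 for *Rsad2* and 3.51 for *Ifit2*, and that of *Ifit2* was 2.31 without the sGSN-/-Clec9a-/- library and 2.30 without the high doublet scores. *Ifit3* had 5 UMIs in cluster 1, and its level in cluster 4, 12.4, 36.2 and 38.5 CPM, gives a ratio of the pooled sums of 60.6 (95% counting interval 25.5 to 189). The UMIs of *Ifit3* in cluster 4 lay in 20 cells, 48 of 173 in 1 cell, and its fitted log2 fold change of 5.75 was 7.50 without the WT library and 4.98 without the sGSN-/- library. *Ddx58*, the gene of the RNA sensor RIG-I, rose by 2.42, and *Isg15* by 0.84.

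Of 13 interferon gamma response genes tested, of 21 listed, 9 were higher and the other 4 did not pass (69.2% higher, against 9.03% of all genes tested, median log2 fold change 1.47). Genes higher in cluster 4 numbered 5 with thinned cells (8 tested), and genes lower there numbered 1 with the library as a block and with thinned cells (8 tested). Without the WT library 6 were higher. The median was 0.96 with thinned cells and without the sGSN-/-Clec9a-/- library. *Irf1*, an early transcription factor of the response, stood at 111, 83.9 and 95.2 CPM in cluster 4 against 21.9, 21 and 18 CPM in cluster 1 (log2 fold change 2.16 ± 0.13, adjusted p = 3.7e-08). Its libraries are well apart, and resting cells lay between, with a mean of 37.1 CPM. *Gbp5*, a GTPase of host defence, stood at 4.27, 12.4 and 6.80 CPM against 0.698, 2.65 and 0.327 CPM (log2 fold change 2.47 ± 0.53, adjusted p = 0.0039), and *Serpina3g*, a protease inhibitor, at 6.61, 10.9 and 13 CPM against 0.930, 3.71 and 0.655 CPM (log2 fold change 2.35 ± 0.45, adjusted p = 0.0018). For both the sGSN-/- library is the highest of cluster 1, and without it the differences were 3.11 and 3.37. Few cells hold these genes. The UMIs of *Gbp5* in cluster 4 lay in 22 cells, with 16 of 48 in 1 cell. The 62 UMIs of *Serpina3g* there lay in 29 cells, counted by that gene alone.

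A grouping of cells by interferon-stimulated genes was chosen after seeing the data and is a description. Cells with UMIs of at least 2 of *Ifit2*, *Ifit3* and *Rsad2* numbered 29 of 512 in cluster 4 (5.66%, 95% interval 3.83 to 8.03), 8 in WT, 11 in sGSN-/- and 10 in sGSN-/-Clec9a-/-, and 8 of 820 in cluster 1 (0.976%). The 29 cells were deep, with a median of 25546 UMIs against 10989 in the other cells of cluster 4, and 11 of them were among the high doublet scores. They held 11.5% of the UMIs of cluster 4 and 33.9% of those of the type I list without the 3 genes that chose them. On that reduced list they stood at 6889.7 CPM, the other cells of cluster 4 at 1750.3 CPM and cluster 1 at 1667 CPM. With its own 8 such cells left out, cluster 1 stood at 1626 CPM. As the cells were chosen by genes of the same response, their higher level on this list follows from the choice and is no test.

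The same 29 cells were set beside the others on further lists, as a description. The interferon gamma list, which belongs to a response close to that of the genes that chose the cells, stood at 1368 CPM in the 29 cells, 474 CPM in the other cells of cluster 4 and 279.9 CPM in cluster 1, and *Irf1* at 108, 96.8 and 20.5 CPM. *Irf1* thus stood high in both sets of cluster 4 cells. The sterol list ran the other way, at 905 CPM in the 29 cells, 2014 CPM in the other cells and 1204 CPM in cluster 1. *Xcr1* stood at 171, 46.2 and 166 CPM and *Itgae* at 137, 24.5 and 164 CPM. On *Xcr1* the 29 cells stood near cluster 1 and the other cells of cluster 4 far below it, whereas *Cd7* was similar in both sets, at 57.4 and 55.7 CPM against 3.96 CPM. What part depth and doublets have in these 29 cells was not tested.

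The interferon-stimulated response element is the sequence that factors activated by type I interferon bind, and its core was searched for, a search chosen after seeing the data, as GAAANNGAAA on both strands of promoters of 300 bases (250 before to 50 after the start, RefSeq GRCm38.p6). It was found in 18 of 34 promoters of the type I list (52.9%), in 11 of 19 of the interferon gamma list (57.9%) and in 1 of 20 of the sterol list. Among the 8922 promoters of tested genes 3.33% held it, and among all 32851 promoters 3.44%. Of 22 genes of the type I list that were higher in cluster 4 and had a promoter in the table, 12 held the core. Over all 28 genes of that list with a promoter it was 16 (57.1%), so the core was no more frequent among those called. The list was picked as interferon-stimulated genes, so its share describes the list and not the clusters. A match describes letters and not a bound site. Searched in the same way, the sterol regulatory element, as TCACNCCAC, was found in 1 of 20 promoters of the sterol list, that of *Hmgcs1*, and in 1.05% of those of tested genes. Promoters of *Ifit3* (chr19:34583279-34583578 on the plus strand), *Rsad2* (chr12:26456403-26456702 on the minus strand) and *Ddx58* (chr4:40239776-40240075 on the minus strand) are shown as those that hold the core among the 4 genes of the list leading by difference, 5' to 3' along the gene, with each match to the core, here on the opposite strand of the gene, in capitals. The other of these genes, *Ifit2*, had no match in either of its promoters.
Ifit3: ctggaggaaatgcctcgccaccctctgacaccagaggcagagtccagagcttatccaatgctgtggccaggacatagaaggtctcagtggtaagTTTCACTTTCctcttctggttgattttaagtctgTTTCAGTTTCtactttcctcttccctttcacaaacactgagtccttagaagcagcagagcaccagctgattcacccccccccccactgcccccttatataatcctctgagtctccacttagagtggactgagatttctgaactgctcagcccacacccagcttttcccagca
Rsad2: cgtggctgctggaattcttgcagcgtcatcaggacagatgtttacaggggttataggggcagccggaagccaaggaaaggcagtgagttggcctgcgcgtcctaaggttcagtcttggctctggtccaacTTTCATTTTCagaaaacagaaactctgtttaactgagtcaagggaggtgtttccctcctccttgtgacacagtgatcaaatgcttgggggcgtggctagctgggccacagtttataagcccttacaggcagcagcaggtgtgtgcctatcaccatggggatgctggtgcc
Ddx58: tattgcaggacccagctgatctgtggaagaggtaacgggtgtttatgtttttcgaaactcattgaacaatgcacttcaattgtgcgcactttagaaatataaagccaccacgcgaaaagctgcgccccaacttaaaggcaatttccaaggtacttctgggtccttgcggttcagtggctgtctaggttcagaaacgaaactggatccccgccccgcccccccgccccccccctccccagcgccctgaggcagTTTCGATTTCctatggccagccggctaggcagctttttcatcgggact

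The spread of RNA over cells, a description also chosen after seeing the data, differed between genes. The 51 cells of cluster 4 with the most UMIs of a gene (10% of its cells) held 100% of the UMIs of *Ifit3*, 99.6% of *Rsad2* and 99.6% of *Cxcl9*. For *Plec* they held 46.9%, for *Cd209a* 64.2% and for *Cd7* 64.5%. Interferon-stimulated genes lay at both ends, with 57% for *Irf1* and 33.5% for *Bst2*. A lower number of UMIs per cell by itself raises such a share, and *Sox4*, with 36 UMIs, reached 100%. In cluster 4, 42% of cells held a UMI of *Cd209a*, against 10.6% in cluster 1, although the median depth of cluster 4 was lower (11172 against 13524.5 UMIs). For *Cd7* the shares were 30.3% and 5%.

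The share of cells with a UMI was also lower in cluster 4 for cDC1 genes called lower, to an extent that varied with the gene. *Xcr1* had a UMI in 22.7% of the cells of cluster 4 and in 60.2% of cluster 1, and *Itgae* in 15.4% and 56.3%. For *Tlr3* the shares were 44.1% and 73.5%, and for *Naaa* 90.8% and 98.3%. The top 51 cells held 78.7% of the *Xcr1* UMIs and 88.2% of the *Itgae* UMIs of cluster 4, while the top 10% of cluster 1 held 43.5% and 41.4%. At a mean of 0.752 UMIs of *Xcr1* and 0.465 of *Itgae* per cell of the shallower cluster 4, a cell at 0 is not shown to lack the gene. The cells with high doublet scores had more *Xcr1*, 127 CPM against 49.3 CPM in the others.

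**Figure D4:**
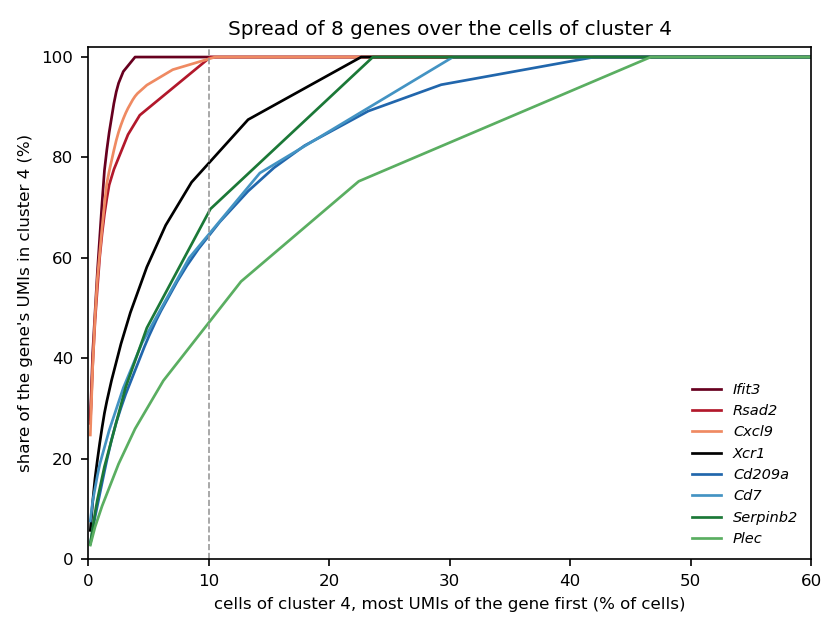
Cumulative share of the UMIs of 8 genes (vertical axis, %) over the 512 cells of cluster 4, sorted from the most UMIs of the gene (horizontal axis, % of cells, dashed line at 10%). At 10% of cells *Ifit3* has reached 100%, *Xcr1* 78.7%, *Cd7* 64.5% and *Plec* 46.9%.

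Set beside the resting cDC1s, with no test, the genes that differ between the clusters took 3 kinds of order by mean CPM. For 488 of the 1417 genes called (34.4%) the resting cells lay beyond cluster 1, so that cluster 1 stood between cluster 4 and the resting cells. *Cd7* and *S100a4* had this order downwards, with resting means of 2.01 and 47.7 CPM, and *Xcr1*, *Tlr3* and *Naaa* upwards, with resting means of 251, 190.5 and 1593 CPM. For 619 genes (43.7%) the resting cells lay between the clusters, as for *Irf1*. The remaining 310 (21.9%) had the resting cells beyond cluster 4, so that cluster 1 stood farthest from them.

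In that last group some genes peaked in cluster 1 and others were lowest there. *Spint1*, an inhibitor of serine proteases, stood at 35, 29.3 and 49.3 CPM in cluster 4, against 82.6, 87.8 and 82.2 CPM in cluster 1, with 12.8, 18.7 and 11.7 CPM in resting cells (log2 fold change -1.26 ± 0.14, adjusted p = 1.2e-05). *Siglech*, with a resting mean of 2.64 CPM, and *Ears2*, a mitochondrial tRNA synthetase gene with 22.9 ± 3.11 CPM in cluster 4, against 49.97 ± 11.3 CPM in cluster 1, with 14.1 CPM in resting cells, had the same order. *Klf2* and *Dusp1* were lowest in cluster 1, *Dusp1* at 395, 397 and 461 CPM in cluster 4, against 233, 231 and 221 CPM in cluster 1, with 901, 679.9 and 874 CPM in resting cells. On these genes the pair of clusters does not form a single line towards the resting cells.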

How the data were processed

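The authors deposited, for each library, raw UMI counts per gene (32285 genes) and barcode from Cell Ranger 6.0.1 with the mm10 (GRCm38) reference, and a table of cDC1s with the cluster and the counts of UMIs and genes of each cell from Seurat, whose version differs between the submitters' processing notes and the methods. According to the methods they kept cells with at least 200 genes and left out dying, T, NK, plasmacytoid and proliferating cells. How the authors treated doublets is not stated in the sources used here, and 2 UMAP columns were not used here. UMIs per cell in table and matrix differed by at most 3.

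The 6 sums were fitted in R 4.3.3 with edgeR 4.0.16 (TMM factors, filterByExpr, quasi-likelihood F-test, Benjamini-Hochberg at 0.05), with the standard error as the absolute log2 fold change over the square root of F. CPM are without TMM factors. The library pairs the sums by design: deviations from the cluster means correlated at 0.155, 0.100 and 0.220 over genes within WT, sGSN-/- and sGSN-/-Clec9a-/-, and at most at 0.0198, 0.0151 and -0.107 with other libraries. Alternatives were library size without TMM factors, DESeq2 1.42.0, no filter on low counts, the library as a block, each library left out, cells thinned to 5100 UMIs (the 5th percentile, 486 cells of cluster 4 and 780 of cluster 1), no cells among the top 6% of Scrublet scores of a library (scanpy 1.11.5), and no cells with a UMI of *Mki67*, *Top2a*, *Ube2c*, *Birc5* or *Cdk1*. Python 3.11.15 was used.

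Named are the 15 largest and 15 smallest log2 fold changes among genes called, with non-overlapping libraries and a mean of at least 30 CPM in the higher cluster, genes the study attaches to these cells, *Clec9a* and *Gsn*, up to 4 called members of each of 22 lists (up to 2 abundant ones where none was called), and in 14 marker lists the most abundant and the called genes. Further list members named in the report were chosen after their values were seen. The members and lists were chosen with earlier results of these data known. Some of the named genes are not reported here. A gene can be in more than 1 list.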

Additional observations from a re-analysis of the deposited data

Results flagged for a closer look

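In 2 named genes the libraries moved in opposite directions between the clusters, by more than the counting error of each. Counting error leaves out the spread between cells, which was wide for both genes. The variance over the mean per cell was 38.9 in cluster 4 and 83 in cluster 1 for *Ifitm1*. It was 10.3 and 15 for *Lyz2*. Opposite directions beyond that spread are therefore not shown. For *Ifitm1* the log2 fold change was -0.14, with log2 ratios of 0.09, -0.18 and -0.09 in WT, sGSN-/- and sGSN-/-Clec9a-/-. For *Lyz2* it was -0.0008, with 603, 656 and 754 CPM in cluster 4, against 654, 589 and 649 CPM in cluster 1 and log2 ratios of -0.12, 0.15 and 0.21. WT lies on the other side from a library of another genotype in each case, and with 1 library per genotype the difference between genotypes was not tested.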

How the results depend on the processing

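Of 120 named genes called, 86 passed with the same sign in each alternative that could test them and 34 did not pass in at least 1. Over 129 named genes tested and 10 alternatives, 1147 values kept sign and side of the threshold, 92 no longer passed, 10 newly passed and 11 changed sign. The number of genes higher in cluster 4 (788) was 456 by DESeq2, 343 with thinned cells and 441 to 620 with 1 library left out. The number lower (629) was 360 without TMM factors, 352 by DESeq2, 306 with thinned cells and 267 to 528 with 1 library left out. Of the genes called lower, 360 were shared without TMM factors, 344 by DESeq2 and 284 with thinned cells. Thinning tested 6720 genes, DESeq2 was given 15395, and leaving out a library leaves fewer sums, and beyond that the cause was not tested. With the library as a block 1024 were higher and 910 lower. That alternative ended none of the calls of named genes, and 4 named genes newly passed with it. Signs changed for *Lyz2* (0.0879 without TMM factors, -0.0757 to 0.0875 with 1 library left out, 0.1301 with thinned cells, 0.0038 without high doublet scores), *Kit* (0.0491 without TMM factors, 0.0241 without high doublet scores), *mt-Atp6* (0.0469 without TMM factors), *mt-Co1* (-0.0043 to 0.0504 with 1 library left out), *Ighm* (-0.0176 to 0.2085 with 1 library left out), *Ifitm1* (0.0191 without cycling cells) and *Fcgr1* (-0.1422 with thinned cells), and of these only *Fcgr1* had been called. Depth limits the low genes: *Ifit3* had 5 UMIs in cluster 1 and *Sox4* 5.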

Other observations

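Outside the lists, some genes with large differences were picked after their values were seen. Higher in cluster 4 were *Plaur*, the receptor for urokinase, at 60.6, 55.6 and 55 CPM against 18.4, 12.7 and 14.1 CPM (log2 fold change 1.82), the chemokine gene *Ccl6* at 87, 67.5 and 122 CPM against 26.3, 23.1 and 24.9 CPM (1.80) and *Lmna*, the gene of lamin A and C, at 167, 199 and 94.6 CPM against 57.7, 50.9 and 28.5 CPM (1.64). *Plaur* and *Serpinb2* belong to the same plasminogen activation system and were both higher. Lower were *Entpd1*, the gene of the ectonucleotidase CD39, at 30.3, 30.8 and 34 CPM against 65.3, 65.5 and 52.1 CPM (-1.04) and *Havcr2*, the gene of TIM-3, at 101, 87.3 and 97.5 CPM against 190.2, 203 and 181 CPM (-1.09).

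A few cells hold much of some genes. In cluster 4, 24 of the 25 UMIs of the platelet gene *Pf4* lay in cells with high doublet scores. *Cxcl9* had 716 UMIs in 54 cells of cluster 4, 177 of them in 1 cell, and stood at 311 CPM in the cells with high doublet scores and 79 CPM in the others. Summed activated cDC markers stood at 61.8 CPM and 13.8 CPM in the same sets of cells.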
